A study of Homo sapiens with 20 samples.

Results

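Long intergenic noncoding RNAs (lincRNAs) transcribed from bidirectional promoters were followed through 18 days of human neural differentiation. The lincRNA catalogue of the study marks such a transcript by the ending -BP after the name of the coding gene on the other side of the promoter, so that linc-EPHA5-BP lies opposite EPHA5. Records with this ending were taken, except 173 with the authors' pseudogene flag and 11 named after developmental transcription factor families (SOX, POU, IRX, HOX and the like). This left 826 of the 38369 gene records, out of 18132 lincRNA and 20237 coding records. They are called BP lincRNAs here, and the gene in the name is called the partner.

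Polyadenylated RNA came from cultures of neural progenitors made from the embryonic stem cell line H1, an established human line. Day 0 cultures were progenitors growing with FGF, which keeps them dividing. All other groups (days 1, 2, 4, 5, 11 and 18) had FGF removed and BDNF, a neurotrophin, added, and cells of days 5, 11 and 18 had been replated at day 4 onto poly-D-lysine and laminin, so that from day 5 on the surface and the time cannot be told apart. Every day had 3 cultures apart from day 5 with 2, 20 samples in all from 1 cell line, and no culture without induction was collected beside the later days. The files hold 1 FPKM value per record and day, a density of fragments scaled to transcript length and to library size, for which the authors pooled each day's cultures. No spread between cultures and no depth is therefore known, no test was made, and a fixed rule of size was used.

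A bidirectional promoter is a stretch of open chromatin from which RNA polymerase II starts in both directions, usually within a CpG island. The coding gene is copied in one direction and a noncoding transcript in the other. In mammals many upstream transcripts of this kind are short-lived, because they meet early polyadenylation signals and are degraded by the exosome, and only some become spliced, stable and polyadenylated. Partners of stable divergent lincRNAs are often housekeeping or regulatory genes, and the level of the lincRNA may or may not follow that of its partner.

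The DNA between the nearest starts of a pair is the promoter stretch that the pair has in common, not sequence common to both RNAs. It is shown for 8 pairs whose expression is described below. Each runs 5′ to 3′ in the direction of the partner gene and covers the bases between the nearest starts plus 50 on either side, in hg19 coordinates. A record can hold several starts, so the nearest need not be the outermost. Capitals mark matches, on either strand, to the CCAAT box (CCAAT), the GC box (GGGCGG), the ETS motif (CCGGAAG) or the NRF1 motif (CGCATGCG). Neighbouring GC box matches may overlap.
linc-EPHA5-BP and EPHA5, chr4:66535156-66535288, minus strand: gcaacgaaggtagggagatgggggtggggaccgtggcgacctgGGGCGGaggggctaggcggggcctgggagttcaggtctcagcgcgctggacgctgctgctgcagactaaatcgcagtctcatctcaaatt
linc-EBF1-BP and EBF1, chr5:158526738-158526908, minus strand: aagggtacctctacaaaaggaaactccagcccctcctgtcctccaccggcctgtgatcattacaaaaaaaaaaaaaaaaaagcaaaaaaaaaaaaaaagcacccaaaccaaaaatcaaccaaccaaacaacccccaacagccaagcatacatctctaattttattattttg
linc-TMEM161B-BP and TMEM161B, chr5:87564615-87564911, minus strand: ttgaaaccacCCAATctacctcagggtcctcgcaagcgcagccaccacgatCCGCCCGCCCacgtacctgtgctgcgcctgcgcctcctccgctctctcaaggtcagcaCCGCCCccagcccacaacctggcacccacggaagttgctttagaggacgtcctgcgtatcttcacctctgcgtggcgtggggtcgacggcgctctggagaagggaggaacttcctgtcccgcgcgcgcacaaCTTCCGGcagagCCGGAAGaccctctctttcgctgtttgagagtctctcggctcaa
linc-ACTR2-BP and ACTR2, chr2:65454597-65454879, plus strand: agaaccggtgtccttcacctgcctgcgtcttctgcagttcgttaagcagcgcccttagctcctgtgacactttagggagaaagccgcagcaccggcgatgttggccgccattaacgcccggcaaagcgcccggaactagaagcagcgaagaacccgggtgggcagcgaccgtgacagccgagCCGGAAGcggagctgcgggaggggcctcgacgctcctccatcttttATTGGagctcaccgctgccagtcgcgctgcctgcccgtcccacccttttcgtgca
linc-TESK1-BP and TESK1, chr9:35605140-35605331, plus strand: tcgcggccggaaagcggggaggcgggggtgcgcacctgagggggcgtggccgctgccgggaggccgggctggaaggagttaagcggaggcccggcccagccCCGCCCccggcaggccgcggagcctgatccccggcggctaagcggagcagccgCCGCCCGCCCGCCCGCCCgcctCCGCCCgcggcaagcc
linc-GABPB1-BP and GABPB1, chr15:50647555-50647714, minus strand: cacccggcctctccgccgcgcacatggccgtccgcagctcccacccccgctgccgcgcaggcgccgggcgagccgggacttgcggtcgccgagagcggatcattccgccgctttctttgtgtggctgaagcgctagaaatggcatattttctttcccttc
linc-RFWD3-BP and RFWD3, chr16:74700729-74700910, minus strand: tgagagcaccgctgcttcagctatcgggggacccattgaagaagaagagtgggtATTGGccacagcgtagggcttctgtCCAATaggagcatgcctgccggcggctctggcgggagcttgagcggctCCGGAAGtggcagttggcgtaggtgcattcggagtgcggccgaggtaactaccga
linc-ALG8-BP and ALG8, chr11:77850649-77850843, minus strand: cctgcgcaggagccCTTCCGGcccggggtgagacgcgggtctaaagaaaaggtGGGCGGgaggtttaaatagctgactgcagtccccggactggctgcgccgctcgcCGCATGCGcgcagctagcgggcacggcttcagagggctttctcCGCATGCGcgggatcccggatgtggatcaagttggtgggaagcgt

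These intervals differed in base composition. GC content was 81.8% in the TESK1 interval, with 6 GC box matches, and 65.6% in the ALG8 interval, where the NRF1 motif was matched at 2 places. The EBF1 interval stood at the other end, with a GC content of 37.4%, 1 CpG and none of the motifs. The TMEM161B interval held 2 ETS and 3 GC box matches and 1 CCAAT box, and the RFWD3 interval 2 CCAAT boxes and 1 ETS match. The GABPB1 interval held 20 CpGs and no match.

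The coordinates were set against the name. A partner record on the same chromosome was found for 784 of the 826 BP lincRNAs, and in all 784 it lay on the opposite strand. The nearest starts were within 1000 bases of each other in 705 of them (89.9%). In 524 the nearest starts diverged, with a median of 160 bases between them (quartiles 91 and 272), and 511 of these distances were at most 500 bases. In the other 260 the lincRNA began inside its partner and the start regions overlapped, with a signed distance down to -12912 bases. Only the nearest starts were used, and a record can hold several. Exons of 300 of the 826 overlapped exons of the partner, some of them in pairs whose nearest starts diverged. The geometry thus fitted the label for most records, while 79 of the 784 had starts farther apart than 1000 bases.

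**Figure D1:**
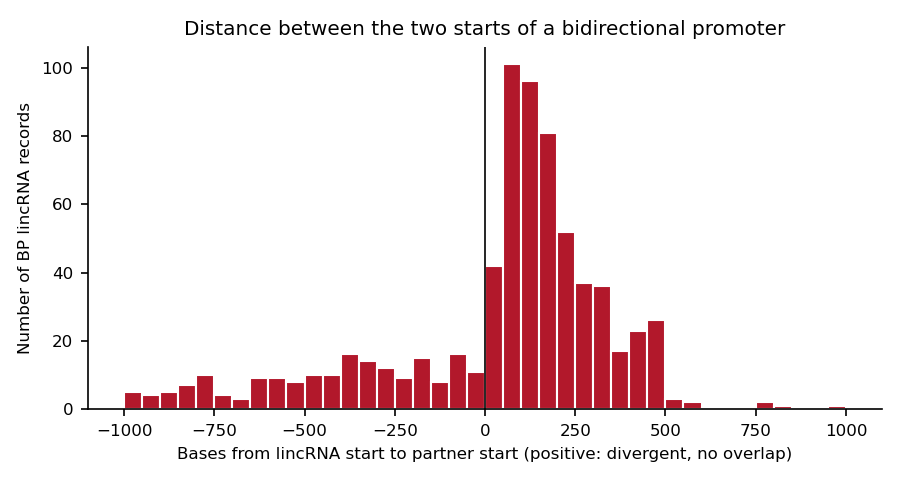
Number of BP lincRNA records (vertical axis) by the distance in bases from the lincRNA start to the partner start (horizontal axis, 50-base bins, drawn from 1000 bases of overlap on the left to 1000 bases of separation on the right). Of 784 records with a partner record, 705 fall in this range, and the bulk lies to the right of 0, where the nearest starts diverge.

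Over the whole set, windows from 250 bases before to 50 after the start of a BP lincRNA had a median GC content of 66.7% and an observed over expected CpG ratio of 0.82 (824 windows; 2 records on alternate haplotypes had none). Windows at 19274 coding records had medians of 61.3% and 0.74, whereas those at 6644 lincRNAs ending in -AS (antisense to the gene in the name) had 46.0% and 0.25, and those at 7857 other lincRNAs 45.3% and 0.23. A CpG ratio above 0.6 was found in 73.1% of BP windows, 62.3% of coding windows, 10.1% of -AS windows and 10.7% of other lincRNA windows. BP windows resembled coding promoters in composition, and many of them hold the start of the partner as well. Where a BP lincRNA had a partner record, its window lay at its start nearest the partner. Windows of the other classes lay at the most upstream start of the record. The classes are thus not compared at like starts, here or for the motifs below, and the part of this choice was not tested.

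The GC box and the ETS motif were more frequent in BP and coding windows than in those of the other lincRNA classes. The GC box, bound by SP1 and its relatives, was in 63.3% of BP windows, against 10798 of the 19274 coding, 13.1% of -AS and 12.1% of other lincRNA windows. The ETS motif was in 14.3%, 12.3%, 2.2% and 2.4% of them, and the TATA box (TATAAA) in 5.0%, 10.0%, 21.4% and 20.9%. The CCAAT box was nearly as frequent in every class, at 33.6%, 35.5%, 30.6% and 35.6%. The NRF1 motif was in 3.2% of BP windows, the CRE motif (TGACGTCA) in 1.9% and the E box (CACGTG) in 7.5%, with 2.6%, 2.4% and 8.2% of coding windows. Among the 141 windows of the expressed BP lincRNAs defined below, the GC box was in 73.3% of the 30 that rose from day 0 to day 18 and in 64.9% of the other 111, and the ETS motif in 26.7% and 18.0%. The CCAAT box was in 33.3% and 38.7%, the TATA box in 0 of the 30 and 6.3% of the 111, and a CpG ratio above 0.6 was found in 73.3% and 76.6%. A match of letters describes the window and is no evidence of binding.

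BP lincRNAs were mostly weakly expressed. Their mean FPKM over the 7 days had a median of 0.204, 35 were listed at 0 on every day, 499 reached a mean of 0.1 and 141 (17.1%) a mean of 1. The share at a mean of 1 or more was 15% of 6680 -AS lincRNAs, 8.89% of 7917 other lincRNAs and 58.3% of coding records. Changes below are for the 141, called expressed BP lincRNAs, which had a median of 2.11 FPKM. The nearest to the limit were linc-SMEK2-BP below it (0.987) and linc-PCYT2-BP above it (1.007).

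Some structural facts bear on these levels. The 141 records had a median of 6617 exon bases, against 2788 over all 826. Exons of 96 of the 141 overlapped an exon of a coding gene on some strand, 63 overlapped exons of the partner, and in 10 at least 50% of the exon bases lay in coding exons. The sources used here state no strand setting for the read counting, so reads in shared bases cannot be told apart between a lincRNA and a gene on the opposite strand. By same-strand exon overlap, 99 of the 141 matched a gene of GENCODE version 44, of which 90 were lncRNAs, 5 protein coding and 2 of a pseudogene kind.

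The most abundant BP lincRNA was linc-ACTR2-BP, opposite ACTR2, a subunit of the Arp2/3 complex that nucleates branched actin. In order of time from day 0 to day 18, as in each such series of 7 values here, it stood at 177, 130, 151, 142, 129, 94.9 and 85.1 FPKM. ACTR2 stood at 90.8, 70.9, 77.9, 71.1, 69.3, 52.8 and 44.2 FPKM. The lincRNA was the higher of the pair on every day and both were highest at day 0; their exons shared 263 bases, 6.66% of those of the lincRNA.

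linc-TESK1-BP, opposite a kinase of the actin regulator cofilin, was next, at 53.4, 51.7, 64.3, 77.5, 64, 57.2 and 38.8 FPKM. It peaked at day 4, while TESK1 stayed between 7 and 11.6 FPKM, and no exon of it overlapped a coding exon. linc-FAM174A-BP (FAM174A-DT in GENCODE) reached 21.5 FPKM at day 11 from 11.6 at day 0, with FAM174A between 3.25 and 4.9. linc-FAM48A-BP, at 18.5 FPKM on day 0 and 9.58 on day 18, has 91.7% of its exon bases in the exon of CSNK1A1L, a casein kinase gene, so its level cannot be told apart from reads of that locus.

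The other 6 of the 10 most abundant had means from 9.86 to 14.6 FPKM. They were linc-PFN2-BP (PFN2-AS1; partner profilin, an actin-binding protein), linc-XRCC6BP1-BP, linc-OTUD6B-BP (OTUD6B-AS1; partner a deubiquitinase), linc-CDK6-BP (CDK6-AS1; partner a cyclin D kinase), linc-GABPB1-BP (GABPB1-AS1; partner a subunit of the ETS factor GABP) and linc-C11orf30-BP (EMSY-DT). The 10 together held 37.5% of the summed mean FPKM of all 826. In 119 of 128 pairs with both records at a mean of 1 FPKM or more, the lincRNA was the lower of the pair, and the partner's mean was 6.41 times that of the lincRNA at the median. The 9 exceptions, chosen here after their values were seen, were the lincRNAs of ACTR2, TESK1, FAM174A, XRCC6BP1, OTUD6B, EPHA5, NANP, NAGLU and EPHX4.

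The 826 BP lincRNAs held 0.187% of all FPKM at day 0 and 0.246% at day 18. The median change of all 14443 records with a mean of at least 1 FPKM was -0.56 on the log2(FPKM + 0.1) scale between days 0 and 18, -0.09 over the first day, -0.15 between days 5 and 11 and -0.28 over the last interval. Changes below are log2 differences relative to this median, and a record is counted as higher or lower when it moved at least 2-fold. As background to the cells, 8 of 11 neuronal markers were higher at day 18 (median 2.83), all 25 expressed genes of a cell cycle and DNA replication list were lower (median -1.82), and 3 of 10 progenitor markers were higher and 1 lower. Of 7 glial and 4 pluripotency markers with a record, 1 each reached a mean of 1 FPKM. Of mesenchymal markers 3 of 5 expressed were lower, and of DNA repair genes 4 of 12 were. Summed over each list, neuronal markers went from 679 FPKM on day 0 to 1457 on day 18, progenitor markers from 3715 to 1863, mesenchymal markers from 647 to 56.9 and glial markers from 10.1 to 4.82. The part of such shifts in the changes of the BP lincRNAs was not tested, and the share of each cell type was not measured, so more of a transcript per cell and more cells of a type cannot be told apart.

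From day 0 to day 18, expressed BP lincRNAs were shifted upward relative to the median record. Of the 141, 30 (21.3%) were at least 2-fold higher and 5 (3.55%) at least 2-fold lower. Over all 14443 expressed records 14.6% were higher and 12.0% lower. The median change was 0.38 (quartiles -0.01 and 0.90), and 104 of 141 lay above 0. Of -AS lincRNAs 16.5% were higher and 7.77% lower (median 0.19, n = 1004), of other lincRNAs 21.3% and 10.5% (median 0.13, n = 704), and of coding records 13.9% and 12.8% (median -0.04, n = 11793). The share of risers was thus that of other lincRNAs, and the share of fallers was the lowest of the classes. Without removal of the median, 8 of the 141 BP lincRNAs were higher and 18 lower, beside 1097 and 4120 of all 14443 expressed records. Their median change was then -0.18 against -0.56 for all records. The 45 that share no exon base with a coding exon had 13 higher and 1 lower, with a median of 0.63.

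Much of the upward shift was present after 1 day. From day 0 to day 1, 16 of 141 (11.3%) were higher and 1 (0.709%) lower, beside 4.86% and 2.30% of all expressed records. The median change was 0.29, against -0.03 for -AS lincRNAs, 0.09 for other lincRNAs and -0.01 for coding records. All 16 stayed above 0 at day 18, and 10 of them were again at least 2-fold higher. Of the 30 risers at day 18, 20 had at least 50% of that log2 change at day 1. Both changes are taken from the same pooled day 0 value, so an error in it would enter both alike. These counts are therefore no independent evidence that a rise lasted.

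**Figure D2:**
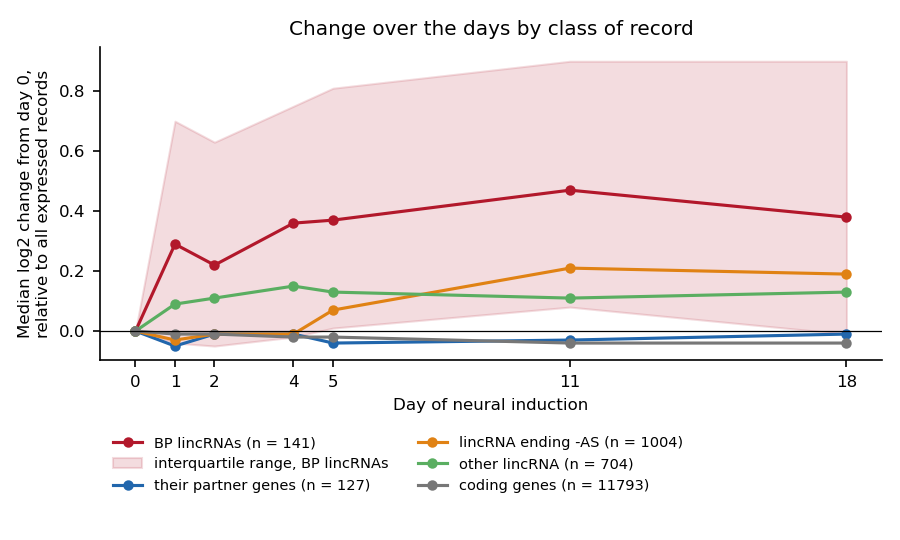
Median log2 change from day 0 (vertical axis, relative to the median of all expressed records) on each day (horizontal axis, days) for expressed BP lincRNAs, their partner genes, -AS lincRNAs, other lincRNAs and coding genes. The shaded band is the interquartile range of the 141 BP lincRNAs across records, not an error; their median was 0.29 at day 1 and 0.38 at day 18, while partner genes lay between -0.05 and 0.00.

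The later steps moved few BP lincRNAs. At least 2-fold change was counted for 2 of 141 by day 2 (against day 1), 1 by day 4, 1 by day 5 and 0 between days 11 and 18 (by the same rule of size, with no test), beside 0.505%, 0.969%, 0.602% and 3.17% of all expressed records. The calls between days 1 and 5 were linc-CUL7-BP (-3.77, then 4.52), linc-CKAP5-BP (-1.04) and linc-FYN-BP (-1.42), named after their values were seen. linc-CUL7-BP was listed at 0 at day 2 and at 1.22 and 2.2 FPKM on the days around it, and all of its 248 exon bases lie in exons of MRPL2. Over days 1, 2, 4 and 5, where most records moved little, the standard deviation of the log2 values of an expressed BP lincRNA was 0.16 at the median and 0.35 at the 90th percentile, which mixes error with change and serves only as a yardstick.

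From day 5 to day 11, 4 of 141 were higher and 0 lower, beside 2.51% and 3.05% of all expressed records. These were linc-EPHA5-BP (1.44), linc-EBF1-BP (1.33), linc-FYN-BP (1.21) and linc-HDGFRP3-BP (1.07). The largest decreases, none of which reached 2-fold, were those of linc-PCCA-BP (-0.88), linc-GPR155-BP (-0.82) and linc-SRP14-BP (-0.71). By the recentred values, 35 of 141 BP lincRNAs were highest on day 18, 32 on day 11 and 18 on day 0. Over all expressed records 27.6% were highest on day 18, 10.7% on day 11 and 32.6% on day 0. In FPKM as deposited, 3 of 141 were highest on day 18 and 25 on day 0. The share over all records was not taken for FPKM as deposited, so these 2 counts have no background.

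linc-EPHA5-BP had the largest rise. Its partner encodes an ephrin-A receptor of developing axons. The lincRNA, at chr4:66535238-66559310 on the plus strand (EPHA5-AS1 in GENCODE), stood at 1.25, 2.17, 2.26, 3.38, 3.19, 7.91 and 12.6 FPKM. EPHA5 stood at 0.585, 1.02, 1.24, 1.53, 1.88, 5.32 and 11.3 FPKM. Both were highest at day 18 and climbed most steeply after day 5, with changes of 3.79 and 4.62 from day 0 to day 18 and a correlation of 1.00 over the 7 days. The nearest starts lie 32 bases apart, but the EPHA5 record, on the minus strand, extends to chr4:66535653, past the start of the lincRNA. Of the exon bases of the lincRNA, 12.8% lie in EPHA5 exons.

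linc-EBF1-BP (LINC02202), at chr5:158523714-158544487, also moved late and with its partner, a transcription factor of B cells and differentiating neurons. It stood at 0.835, 0.624, 1.01, 0.972, 1.23, 2.92 and 2.06 FPKM. EBF1 stood at 4.87, 3.97, 4.07, 5.37, 9.32, 21.4 and 20 FPKM. In FPKM as deposited both were highest at day 11. Relative to the median they changed by 1.77 and 2.57 from day 0 to day 18. Exons of the pair overlap, so reads in shared bases cannot be told apart. Its interval between the starts was the AT-rich one of the 8 shown.

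Both records named linc-TMEM161B-BP (TMEM161B-DT) rose as well, by 1.70 and 1.51. The record beginning at chr5:87564861 stood at 1.37, 2.41, 3.42, 3.66, 3.22, 4.14 and 3.15 FPKM. TMEM161B, a membrane protein gene, stood at 4.94, 5.61, 6.23, 6.36, 6.86, 7.34 and 6.34 FPKM and changed by 0.91. The 2 lincRNA records overlap, so they are no independent pair of observations.

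A further group rose early while the partner did not. linc-ZRANB2-BP (ZRANB2-DT), opposite a zinc finger splicing factor, stood at 0.391 FPKM at day 0 and at 1.24, 0.769, 1.63, 1.29, 1.53 and 1.22 FPKM from day 1 on. Its change of 1.98 compares with -0.24 for ZRANB2, which stood between 28.1 and 48.7 FPKM. linc-THOC5-BP, opposite a subunit of the THO mRNA export complex, went from 0.392 FPKM to 1.03 and 1.79 on the next 2 days measured, and ended at 0.955. THOC5 moved by -0.08, and 24.1% of the lincRNA's exon bases lie in exons of THOC5 and NIPSNAP1. Both lincRNAs lie close to the limit of 1 FPKM, where a few fragments weigh most.

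linc-PRKRIR-BP went from 4.55 FPKM at day 0 to 9.22 at day 18, a change of 1.56 (PRKRIR -0.27). Its record matches GVQW3, which GENCODE now lists as protein coding. linc-ZNF594-BP (ZNF594-DT) went from 1.71 to 3.76 FPKM, a change of 1.65, with ZNF594, a zinc finger gene, at 0.24. linc-FYN-BP, opposite a Src-family kinase, stood at 4.84, 6.53, 8.97, 9.47, 3.31, 6.97 and 11.1 FPKM, a change of 1.74, and 80.3% of its 319 exon bases lie in FYN exons. It was also the least steady of the named risers, with a standard deviation of 0.65 over days 1 to 5.

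The largest changes at day 1 belonged to linc-ZBED3-BP, linc-VLDLR-BP and linc-GMDS-BP. linc-ZBED3-BP (ZBED3-AS1; partner a BED zinc finger gene of the Wnt pathway) went from 0.813 to 2.77 FPKM, a change of 1.74, and stood at 1.58 at day 18. linc-VLDLR-BP (VLDLR-AS1) went from 2.17 to 6.72 FPKM, a change of 1.68, and back to 3.36 at day 18. VLDLR, a receptor for reelin, stood at 14.4 and 18.4 FPKM at days 0 and 1, a change of 0.45. linc-GMDS-BP (GMDS-DT), opposite an enzyme of GDP-fucose synthesis, went from 0.965 to 2.96 FPKM, a change of 1.61, while GMDS moved by 0.11. All 3 were above their day 0 level on every later day, each compared with the same day 0 value by which it was chosen. Exons of the VLDLR and GMDS pairs overlap, and those of the ZBED3 pair do not.

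Few BP lincRNAs fell. linc-BSG-BP (BSG-AS1), at chr19:561700-572310 on the minus strand, stood at 9.14, 5.48, 4.54, 3.93, 2.88, 2.34 and 0.976 FPKM. BSG, which encodes basigin, a chaperone of lactate transporters, stood at 269, 238, 210, 227, 216, 164 and 120 FPKM. The lincRNA declined at every step and changed by -2.54, against -0.60 for BSG, and exons of the pair overlap. No other member fell 4-fold.

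linc-RFWD3-BP fell together with its partner, a ubiquitin ligase of DNA repair. It stood at 5.97, 3.25, 2.29, 3.18, 2.28, 2.85 and 1.51 FPKM, a change of -1.35. RFWD3 stood at 28.5, 15.8, 15, 16.3, 12.9, 10.3 and 5.7 FPKM, a change of -1.74. The largest step of both relative to the median, -0.76 and -0.75, was that of day 1. In GENCODE the record matches TMPOP2, a processed pseudogene, and whether its level holds reads of the parent gene was not tested.

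The other 3 that fell at least 2-fold were linc-PON3-BP (-1.36), linc-TSNAX-BP (-1.28) and linc-ALG8-BP (-1.05). linc-PON3-BP went from 12.6 to 3.26 FPKM, while the joint record of PON3, a lactonase gene, and PON1 was at most 0.116 FPKM on any day. linc-TSNAX-BP went from 3.66 to 0.956 FPKM. TSNAX, the partner of the RNA-binding protein translin, is held in a joint record with DISC1, which moved by -0.16. Exons of this pair overlap. linc-ALG8-BP (KCTD21-AS1) went from 1.27 to 0.349 FPKM and ALG8, an enzyme of N-glycan assembly, moved by -0.93, and 33.4% of the lincRNA's exon bases lie in KCTD21. linc-ZNF83-BP (-0.95), linc-SRP72-BP (-0.93) and linc-CLN8-BP (-0.79) came next and did not reach 2-fold. linc-SRP72-BP, opposite a signal recognition particle subunit, was the 1 record lower at day 1 (-1.21), going from 3.03 to 1.17 FPKM, and linc-RFWD3-BP (-0.76) and linc-GRAMD2-BP (-0.64) came after it.

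**Figure D3:**
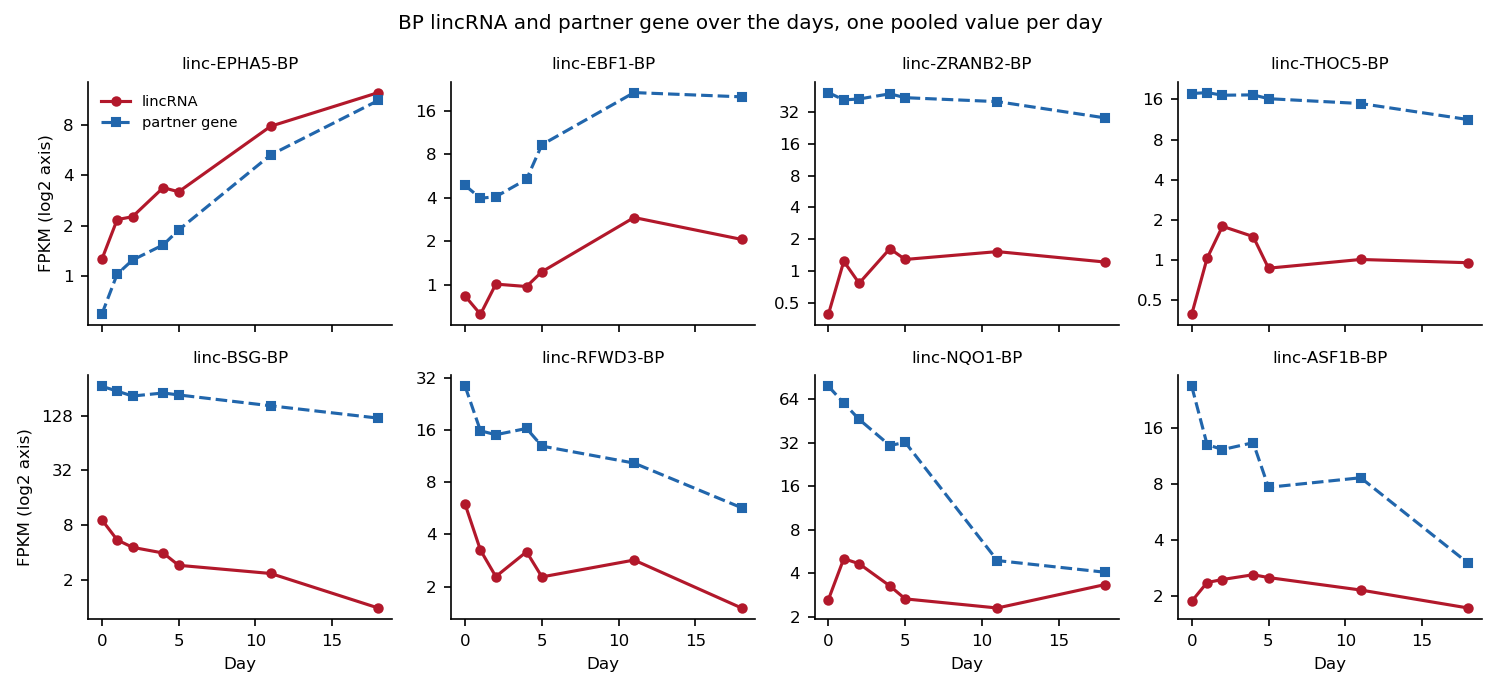
FPKM on a log2 axis by day for 8 BP lincRNAs (red circles) and their partner genes (blue squares); each point is the authors' single value for that day, without error, and the vertical scale differs between panels. EPHA5 and EBF1 climb with their lincRNAs and RFWD3 declines with its own, while NQO1 and ASF1B drop by 3.69 and 2.57 (log2, relative to the median) beside lincRNAs that moved by 0.89 and 0.44.

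Across the 128 pairs with both records expressed, the lincRNA and its partner moved the same way in 78 (60.9%) from day 0 to day 18. Both were above the median in 54 pairs and both below in 24. In 41 pairs the lincRNA was above and the partner below, and in 9 the reverse. The count was 640 of 896 pairs (71.4%) for -AS lincRNAs and 223 of 420 (53.1%) for other lincRNAs and the gene in their name. The partners themselves showed no upward shift, with a median of -0.01, 12 higher and 6 lower, where their lincRNAs had a median of 0.42, 27 higher and 4 lower. At day 1 the partners had 2 higher and 0 lower, and their lincRNAs 15 higher and 1 lower.

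The partners of the risers were higher about as often as records in general. Of the 27 higher BP lincRNAs with an expressed partner, 4 had a partner that was also at least 2-fold higher (EPHA5, EBF1, PEG3 and KLF11, named after their values were seen), beside 14.6% of all expressed records and 12 of the 128 partners. None had one that was lower, and 14 partners lay above the median and 13 below. At day 1 none of the 15 partners of higher lincRNAs reached 2-fold, beside 4.86% of all expressed records higher at that step and 2 of the 128 partners, so a count of 0 among so few is near the background, and 9 lay above the median. All 4 partners of lower lincRNAs at day 18 lay below it, and 1 of them, RFWD3, was 2-fold lower.

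**Figure D4:**
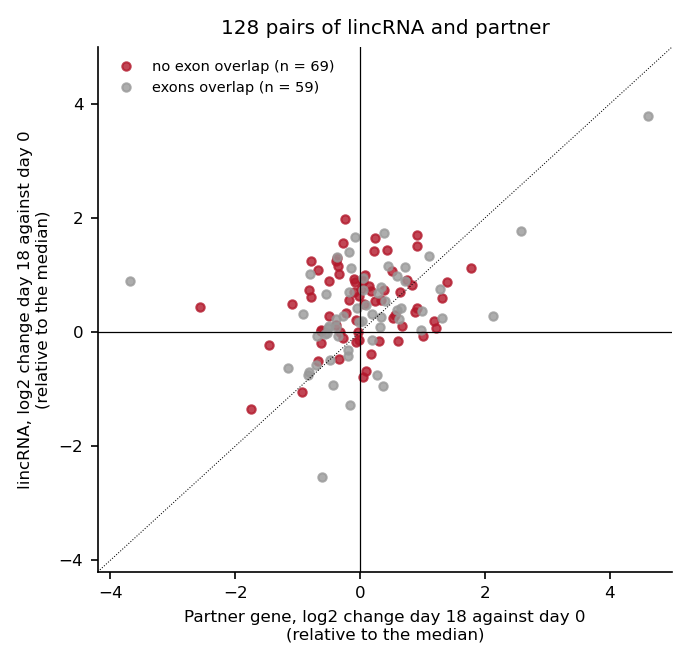
Log2 change from day 0 to day 18 of each BP lincRNA (vertical axis) against that of its partner gene (horizontal axis), both relative to the median of all expressed records; each point is 1 of 128 pairs, red where the exons of the pair do not overlap (n = 69) and grey where they do (n = 59). Points lie mostly above the horizontal zero line on both sides of the vertical one, with EPHA5 at the upper right and NQO1 at the far left.

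Over the 7 days, the correlation of lincRNA and partner had a median of 0.29 across the 128 pairs, with 44 pairs above 0.5 and 18 below -0.5. These are descriptions over 7 values of 1 culture series, and each pair shares its libraries. For -AS pairs, 867 of 896 with overlapping exons, the median was 0.63, and for other lincRNAs, none with overlap, 0.04. Among BP pairs, the 59 BP pairs with overlapping exons had a median of 0.42, and the 69 without had 0.01. Among -AS pairs the medians were 0.63 with overlap and 0.55 in the 29 without. In the same-way count, 40 of 59 pairs (67.8%) with overlap and 38 of 69 (55.1%) without moved together. The part of shared bases in these values was not tested. Without removal of the median, the median correlation was 0.47 over all pairs.

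**Figure D5:**
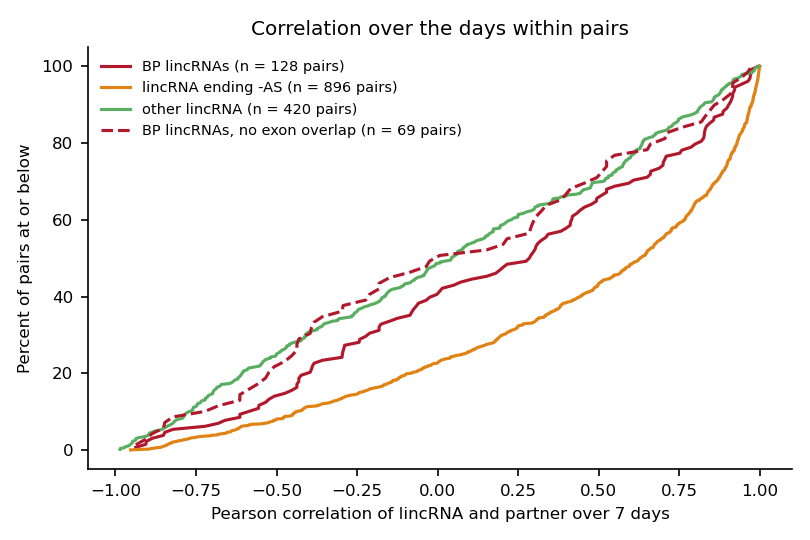
Cumulative percent of pairs (vertical axis) by the Pearson correlation of lincRNA and partner over the 7 days (horizontal axis), for BP lincRNAs (solid red, 128 pairs; dashed, the 69 without exon overlap), -AS lincRNAs (orange, 896) and other lincRNAs (green, 420). The -AS line lies farthest to the right with a median of 0.63, and the dashed line has a median of 0.01.

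The pairs that parted most were those of NQO1 and ASF1B. NQO1, a quinone reductase of the oxidative stress response, stood at 79, 60.4, 46.6, 30.7, 32.3, 4.9 and 4.07 FPKM, a change of -3.69. linc-NQO1-BP (NQO1-DT) stood at 2.63, 5.05, 4.66, 3.27, 2.66, 2.3 and 3.34 FPKM, a change of 0.89, although 28.8% of its exon bases lie in exons of NQO1 and NOB1. ASF1B, a histone chaperone of dividing cells, went from 27 to 3 FPKM, a change of -2.57. linc-ASF1B-BP (ADGRL1-AS1) stood between 1.72 and 2.6 FPKM on every day, and 17.4% of its exon bases lie in LPHN1.

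UGDH, an enzyme of glycosaminoglycan precursor synthesis, went from 22.1 to 8.65 FPKM, a change of -0.79, while linc-UGDH-BP went from 1.62 to 2.68 FPKM, a change of 1.25, with a correlation of -0.91. CSPG5, a neural proteoglycan, went the other way, from 7.01 to 21 FPKM (2.13), with linc-CSPG5-BP at 0.28 and 25.9% of its exon bases in CSPG5 and SMARCC1. Opposite courses were also seen for GABPB1, which went from 18.6 FPKM at day 0 to 10.9 at day 1, while linc-GABPB1-BP went from 7.84 to 11.9, with a correlation of -0.89 and no shared exon base. These lincRNAs and partners start within 35 to 525 bases of each other.

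Grouped by what the partner does, with roles assigned after the values were seen, the 17 expressed BP lincRNAs opposite zinc finger protein genes had 7 higher and 0 lower at day 18, a median change of 0.90 and 16 above 0. Their 15 expressed partners had a median of 0.59 and the median correlation within these pairs was 0.82. The risers were the lincRNAs of ZRANB2, ZNF594, ZBED3, KLF11, ZNF850, PEG3 and ZNF582. linc-PEG3-BP (MIMT1) stood at 0.884 FPKM at day 0 and 1.36 at day 18. The joint record of PEG3, an imprinted zinc finger gene, and ZIM2 stood at 23 and 53.8 FPKM. Taken by name alone, the 10 expressed BP lincRNAs with a partner named ZNF had 3 higher and 0 lower and a median of 0.57. Coding genes named ZNF had 71 of 410 expressed records (17.3%) higher and 2 lower and a median of 0.43, beside 14.6% higher over all expressed records.

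The other groups had smaller median changes. Over all expressed records 14.6% were higher and 12.0% lower, and counts of risers such as 4 of 22, 2 of 12 and 2 of 13 lie near that share. Opposite kinases, phosphatases and signalling genes, 5 of 14 were higher and 0 lower (median 0.64). Opposite metabolic enzymes, 4 of 22 were higher and 2 lower (median 0.19), and opposite receptors, adhesion molecules and transporters 2 of 12 and 1 (median 0.15). Opposite genes for RNA processing, translation and secretion, 2 of 13 were higher and 0 lower. Among them linc-DICER1-BP (DICER1-AS1), opposite the nuclease that matures microRNAs, had 2.97 FPKM before induction, 5.55 after 1 day and 5.45 on day 18, a change of 1.41, with DICER1 at -0.18. Opposite transcription and chromatin genes, 1 of 14 was higher (median 0.56), and opposite ubiquitin pathway genes 2 of 6 (median 0.32). Opposite cytoskeleton and trafficking genes, 1 of 8 was higher (median 0.08). Of the 4 opposite cell division and DNA repair genes, 1 was higher and 1 lower (median 0.72). In the remaining 31, not grouped, 5 were higher and 1 lower.

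Of the 26 genes on the cell cycle and DNA replication list, only BUB1, a kinase of the spindle checkpoint, was the partner of a BP lincRNA. BUB1 went from 38.2 to 4.98 FPKM, while linc-BUB1-BP was at most 0.00665 FPKM on any day. DPPA4, on the pluripotency list, went from 9.72 to 2.25 FPKM beside a lincRNA of at most 0.0253 FPKM. None of the 12 genes on the DNA repair list was a partner. BUB1 and DPPA4 were thus above 1 FPKM on all days beside lincRNAs close to 0. AQP4, on the glial list, was also the partner of a BP lincRNA, and that pair is not described here.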

How the data were processed

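Per the labels and the study's methods, libraries of polyadenylated RNA were sequenced as paired ends, and the authors used TopHat2 for alignment (hg19), Cufflinks for assembly, and estimated FPKM with Cuffdiff2 at default options; versions are not given in the sources used here. The deposited FPKM matrix holds 1 value per record and day, pooled by the authors over cultures, so 0 columns hold single cultures, depth is unknown and precision cannot be stated. The authors' comparison columns (fold changes, test statistics, p-values and q-values between adjacent days) were not used; other columns of that table give coordinates, exons and a pseudogene flag.

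Changes were differences of log2(FPKM + 0.1), which understate the change of low records, minus the median difference over the 14443 records whose mean FPKM reached 1. A record was counted as higher or lower at 2-fold. Samples were grouped by the day in their titles. The partner was the coding record of the name with the nearest start. Some partner records join several genes, such as DISC1 with TSNAX or PEG3 with ZIM2, and their values are those of the joint record. Exons were compared with GENCODE version 44 on GRCh37, the same assembly as hg19, with a match at 50% of the exon bases of either; promoter sequence came from GRCh37. The code for the calls was tested on simulated data, which says nothing of the precision of the measured values. Named were the 10 members with the highest mean FPKM; the 8 largest rises and falls over the course; the 3 largest of each over the first day and between days 5 and 11; the 6 pairs that differed most in change; and the partners of each. Members and lists were chosen with earlier results of these data known. Scripts ran in Python 3.11.15 with pandas 2.3.3.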

Additional observations from a re-analysis of the deposited data

How the results depend on the processing

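No paired analysis was possible because the files hold 1 value per day and none per culture; for the same reason no replicate could be left out. Without removal of the median, the median change of expressed BP lincRNAs from day 0 to day 18 turned from 0.38 to -0.18. The count of changed members was then 11 in place of 17 at day 1, 1 in place of 2 at day 2, and 5 in place of 0 over the last interval. By that rule 571 of all 14443 expressed records were higher and 463 lower at day 1, 35 and 39 at day 2, and 132 and 531 over the last interval. The median correlation of the pairs was 0.47 in place of 0.29. A Spearman correlation gave 0.18, and the pairs with no exon overlap, an alternative chosen after seeing the data, gave 0.01, with 38 of 69 pairs moving the same way. The counts of members changed at least 2-fold are given below in the order day 18 against day 0, then days 1, 2, 4, 5, 11 and 18 each against the day before, and were 35, 17, 2, 1, 1, 4 and 0 as reported. They were 138, 55, 16, 15, 15, 27 and 10 of 499 at a mean FPKM of at least 0.1, and 179, 64, 20, 19, 18, 31 and 10 of 791 with no filter. They were 71, 50, 8, 8, 2, 13 and 16 at 1.5-fold, and at 4-fold 2, 0, 1, 1, 0, 0 and 0. No share over all records is given at these filters and folds, so these counts have no background and show only how the setting moves them. For the 45 members with no base in a coding exon they were 14, 7, 0, 0, 0, 0 and 0, with a median change of 0.63. A pseudocount of 1 gave 13, 3, 1, 1, 1, 2 and 0, and one of 0.01 gave 2 at day 4 and 1 over the last interval. No share over all records is given at these pseudocounts either. With no filter the median change was 0.57. Pairs moving the same way were 279 of 463 at a mean of 0.1, 466 of 752 with no filter and 23 of 42 without coding overlap. Recentring on coding records, requiring starts within 1000 bases and taking the partner record with the highest mean FPKM left every count within 1.5 times and every median within 0.1. The share of rises among the calls from day 0 to day 18 depended on removal of the median, and low FPKM limits single members near 1 FPKM most.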
